A study of Homo sapiens with 21 samples.

Results

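The annexins are a family of calcium-dependent, phospholipid-binding proteins, and the 10 genes followed here are ANXA1, ANXA2, ANXA3, ANXA4, ANXA5, ANXA6, ANXA7, ANXA9, ANXA10 and ANXA11. They were taken by symbol from the 23201 genes of the deposited table, by a rule that uses no measured value. RNA was sequenced from HMLE, an established human cell line of immortalized epithelial cells from the breast, either untreated (d0) or on day 1, 4, 7, 10, 15 or 20 of exposure to TGFβ, a cytokine that drives epithelial-mesenchymal transition (EMT). There were 3 libraries at each of the 7 timepoints, 21 in all, and every group is the same line, so the groups differ by label only in the TGFβ exposure. The dose of TGFβ and the culture or passage behind each library are not given in the sources used here, and the single untreated group has no partner of the same time in culture. Time in culture and time in TGFβ therefore cannot be told apart.

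Values are normalized read counts, that is, reads of a gene scaled by a size factor specific to its library. The recovered totals were 18847917 to 22667754 reads per library. The 13343 genes with a mean of at least 10 were compared on log2(value + 1) with limma, a linear model fitted across all genes, and a difference was called at a Benjamini-Hochberg adjusted p under 0.05. Outside d7, the root mean square log2 difference between libraries of one timepoint was 0.214 to 0.243, whereas library 3 of d7 differed from its 2 partners by 0.472 and 0.457. The difference of each tested member from d0 on d7 is therefore given with and without that library, while the ratios and the list counts that do not name it include it. Of the 4 mesenchymal markers examined, VIM, FN1 and CDH2 were higher on every treated day. The other, ZEB1, read 6.23, 5.94 and 4.95 normalized counts on d0 and 423, 435 and 442 on d20. It reached the mean of 10 only through treated days, so no test of it against d0 is given. Of the 4 epithelial markers, CDH1, EPCAM and KRT5 were lower and KRT14 higher on d20. On d7, CDH1 and KRT5 did not pass the threshold (log2 fold change 0.0046 and 0.05, limma adjusted p = 0.95 and 0.772). KRT5 read 298352 and 281986 in libraries 1 and 2 of d7 against 149134 in library 3. Without library 3 of d7, CDH1, KRT5 and KRT14 were called higher on d7 and EPCAM lower. That is 3 of the 4 markers higher and 1 lower, against 36.8% and 34.3% of all genes. The leukocyte markers PTPRC and CD3E and the endothelial marker CDH5 had at most 1 read in any library. VWF had at most 13 reads, PECAM1 had at most 51, and CD68, which is also a lysosomal protein of other cells, ranged from 342 to 818 normalized counts. Since these are bulk RNA samples, a change in the share of cells that express a gene and a change in RNA per cell cannot be told apart.

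Each annexin has a conserved core of repeats that binds negatively charged phospholipids, above all phosphatidylserine, when calcium rises, and a variable N-terminal tail that binds partners such as S100 proteins. Annexins gather at torn plasma membrane, bridge vesicles, organize membrane domains and link membranes to actin. In epithelial cells they serve in secretion, in junction and apical membrane organization and in repair, and several are secreted or exposed on the cell surface, where annexin A2 binds plasminogen and annexin A1 acts on formyl peptide receptors.

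The promoters are shown first because TGFβ acts on its targets through transcription factors that bind near such starts. RefSeq promoters (GRCh38.p14, 250 bases before to 50 bases after each start) matched all 10 members, with 14 promoters in total. Those printed belong to ANXA2, the most abundant member, to ANXA1 and ANXA5, the next by level per kilobase, and to ANXA6, the member with the largest increase, which has 2 listed starts. They lie at chr9:73151615-73151914 (ANXA1, plus strand), chr15:60397937-60398236 (ANXA2, minus strand), chr4:121696931-121697230 (ANXA5, minus strand), and chr5:151157730-151158029 and chr5:151141635-151141934 (ANXA6 promoters 1 and 2, minus strand). Each is written 5′ to 3′ and runs past the transcript start. Capitals mark the TATA box (TATAAA), the AP-1 site (TGANTCA) and the SMAD box (CAGAC), each searched on both strands.
ANXA1: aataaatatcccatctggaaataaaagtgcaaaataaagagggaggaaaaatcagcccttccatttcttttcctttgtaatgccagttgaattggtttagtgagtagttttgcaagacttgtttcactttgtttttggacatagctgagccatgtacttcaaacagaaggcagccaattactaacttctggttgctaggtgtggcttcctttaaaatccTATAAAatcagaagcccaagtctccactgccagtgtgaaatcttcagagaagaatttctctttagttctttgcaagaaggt
ANXA2: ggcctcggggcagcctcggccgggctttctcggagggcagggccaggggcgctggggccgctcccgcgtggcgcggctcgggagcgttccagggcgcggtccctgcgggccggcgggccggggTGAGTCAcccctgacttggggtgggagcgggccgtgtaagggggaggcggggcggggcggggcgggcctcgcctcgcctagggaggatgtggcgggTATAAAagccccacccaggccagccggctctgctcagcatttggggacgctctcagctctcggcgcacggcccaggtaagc
ANXA5: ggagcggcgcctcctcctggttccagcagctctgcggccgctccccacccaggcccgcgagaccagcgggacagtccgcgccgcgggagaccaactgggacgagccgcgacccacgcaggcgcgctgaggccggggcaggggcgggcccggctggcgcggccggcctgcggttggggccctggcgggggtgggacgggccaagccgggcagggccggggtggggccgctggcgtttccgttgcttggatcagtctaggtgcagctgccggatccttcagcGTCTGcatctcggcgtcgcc
ANXA6 promoter 1: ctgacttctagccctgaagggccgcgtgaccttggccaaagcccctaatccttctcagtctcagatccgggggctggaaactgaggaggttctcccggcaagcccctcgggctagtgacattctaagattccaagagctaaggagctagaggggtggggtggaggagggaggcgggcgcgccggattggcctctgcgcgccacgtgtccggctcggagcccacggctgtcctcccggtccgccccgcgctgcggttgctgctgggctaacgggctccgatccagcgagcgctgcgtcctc
ANXA6 promoter 2: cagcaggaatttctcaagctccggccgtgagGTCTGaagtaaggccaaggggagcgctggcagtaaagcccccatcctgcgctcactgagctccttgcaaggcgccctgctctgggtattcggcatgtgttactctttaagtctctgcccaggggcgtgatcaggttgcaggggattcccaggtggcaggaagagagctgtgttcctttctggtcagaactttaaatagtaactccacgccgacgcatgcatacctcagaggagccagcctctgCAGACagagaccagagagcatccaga
The ANXA1 and ANXA2 promoters both held a TATA box that began at position -31 relative to the start, and they differed in base composition, with a GC content of 37.67% for ANXA1 and 76% for ANXA2 against a median of 58.67% over all promoters. An AP-1 site was present in 1 of the 14 promoters, that of ANXA2 at -127, and 7.71% of the 35116 promoters in the table held one. A TATA box was found in 4 of the 14 promoters (ANXA1, ANXA2, ANXA10 and the first of ANXA11), and in 11.5% of all promoters. The SMAD box, a short motif found in 45.3% of all promoters, was present in 6 of the 14, among them ANXA5 at 30 and the second ANXA6 promoter, whose 2 boxes are on opposite strands. The first ANXA6 promoter held none of these motifs in this window. These matches describe the sequence and were not tested against expression.

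In untreated cells the annexin transcripts spanned a wide range of abundance. Per kilobase of exon, ANXA2 stood at 15908 normalized counts, ANXA1 at 4263, ANXA5 at 3975 and ANXA7 at 1235. ANXA3 followed at 709, ANXA4 at 539, ANXA11 at 353 and ANXA6 at 141, while ANXA9 was at 50.2 and ANXA10 at 0.20. The length used merges the exons of all coding transcripts, 7.24 kb for ANXA11, 2.80 for ANXA4 and 1.80 for ANXA3. Before that division, ANXA11 had a d0 mean of 2553 normalized counts, above ANXA4 at 1509 and ANXA3 at 1275. The place of ANXA11 in this order thus depends on the length used. By d20 the level of ANXA6 per kilobase was 941, between ANXA3 at 1206 and ANXA4 at 484, and it had passed ANXA4 and ANXA11. Together the members took 0.304% ± 0.003 (SD, n = 3) of all reads on d0, 0.445% ± 0.003 on d1, 0.442% ± 0.001 on d10, 0.266% ± 0.003 on d15 and 0.441% ± 0.006 on d20. ANXA2 alone made up 53.6% of the member reads on d0 and 62.5% on d4. Reads of the 3 ANXA2 pseudogenes in the table summed to at most 0.247% of ANXA2 in the same library, and how reads shared with them were counted is not given in the sources used here.

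Of the 10 members, 9 passed the filter on low values. At d1, 6 of the 9 were higher than on d0, where 31.3% of all genes tested were higher, and 1 was lower, against 28.5% of all genes. At d4, 4 were higher (36.9% of all genes) and 2 lower (35.3%), and on d7, 3 were higher (34.6%) and 4 lower (32.6%). Without library 3 of d7 the numbers on d7 were 4 higher (36.8% of all genes) and 5 lower (34.3%), and on d4 they were 4 higher (38.9%) and 4 lower (37.6%). At d10, 6 were higher (37.0%) and 2 lower (30.7%), on d15, 2 were higher (39.2%) and 5 lower (37.3%), and on d20, 6 were higher (32.5%) and 3 lower (30.2%). Without library 3 of d7, 4 members were called higher on d15 (41.0% of all genes), since ANXA4 and ANXA5 then passed the threshold. The median log2 fold change of the 9 members against d0 was 0.40 on d1, -0.05 on d4, -0.11 on d7, 0.30 on d10, -0.27 on d15 and 0.37 on d20, while that of all genes stayed between -0.00047 and 0.03. At least 2-fold changes were fewer. Of the 9 members, 3 were higher and 1 was lower by that measure on d1 (6.47% and 3.87% of all genes), 1 and 1 on d4 (9.68% and 5.03%), and 1 and 1 on d7 (8.79% and 2.93%). There were 2 higher and 1 lower on d10 (6.94% and 7.34%), 1 and 1 on d15 (11.7% and 8.66%), and 2 and 1 on d20 (7.51% and 4.72%). ANXA6 was the higher one, joined by ANXA3 and ANXA5 on d1 and by ANXA5 on d10 and d20, and ANXA9 was the lower one. Rescaling every library to the same total put the median of all genes at -0.20 to -0.14 on the 6 days and left 26.7% to 39.1% of the called genes higher, against 51.1% to 54.6% as deposited, so small member differences depend on the scaling.

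**Figure D1:**
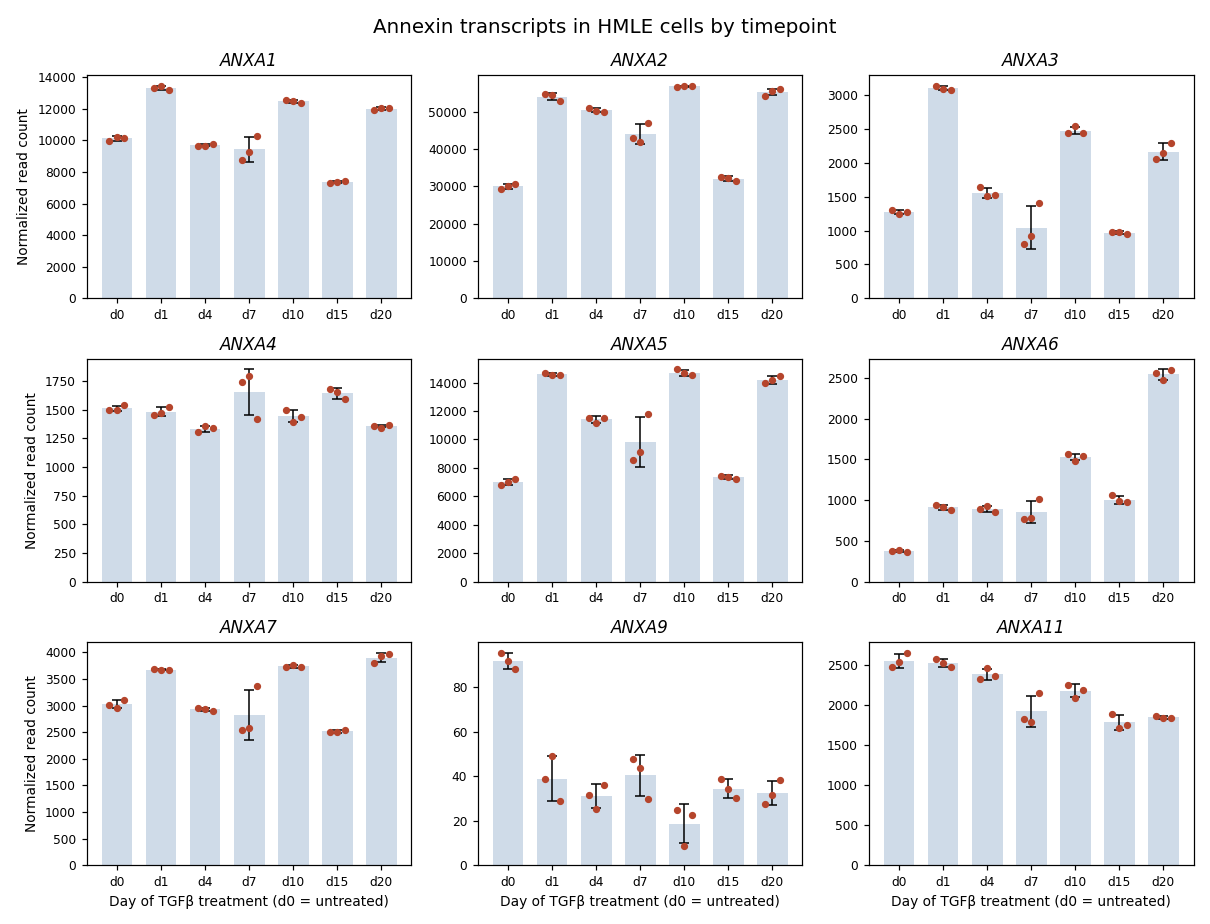
Normalized read counts (y axis, linear from 0 in each panel) of the 9 annexins tested against the day of TGFβ (x axis, d0 untreated), where points are the 3 libraries, bars the means and whiskers the SD. ANXA6 ran from 381 on d0 to 2542 on d20, ANXA2, ANXA5 and ANXA3 had low means on d15 between high ones on d10 and d20, and ANXA9 was highest on d0; the wide d7 whiskers reflect library 3.

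**Figure D2:**
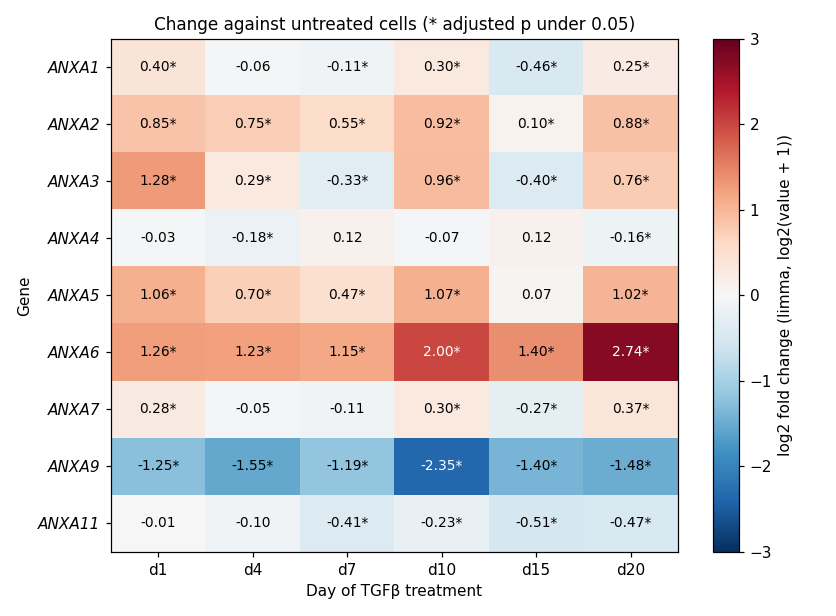
Log2 fold change (colour and printed value, limma on log2(value + 1)) of each tested annexin (y axis) on each treated day (x axis) against d0, with an asterisk where the adjusted p is under 0.05. ANXA6 and ANXA2 carried an asterisk above 0 on all 6 days and ANXA9 one below 0 on all 6; the ANXA2 value on d15, the ANXA5 value on d15 and the ANXA4 values on d7 and d15 changed sign when libraries were rescaled to the same total.

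ANXA6, the largest annexin, whose core is duplicated and which acts in endosomal cholesterol transport and in membrane repair, had the largest increase of the 9 members tested. Its 3 libraries read 381.8, 392.7 and 368.1 normalized counts on d0, and 2556, 2474 and 2597 on d20, a 6.68-fold difference of the means. Treated libraries at every day lay above all untreated ones. In between, the libraries read 948, 915 and 883 on d1, 893, 929 and 858 on d4, and 771, 777 and 1010 on d7, the last being the library that stands apart. They then read 1563, 1484 and 1544 on d10 and 1059, 987 and 973 on d15. The response thus had an early plateau from d1 to d7, a higher level on d10, a lower one on d15 and its maximum on d20. The log2 fold change against d0 was 1.26 on d1, 1.23 on d4, 1.15 on d7 (1.02 without library 3), 2.00 on d10, 1.399 on d15 and 2.74 on d20, each with an SE of 0.07, and on d20 the limma adjusted p was 2.04e-18. In the order of its means, d20 exceeded d10 and d10 exceeded d15 (limma adjusted p = 8.27e-08 and 1.09e-07), while neighbours among d15, d1, d4 and d7 did not pass the threshold. Without library 3 of d7 the neighbours d15 and d1 differed (limma adjusted p = 0.00519), as did d4 and d7 (limma adjusted p = 0.000455). Rescaling to the same total left the increase at 2.54 and quantile normalization at 2.68 on d20.

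ANXA2, which with S100A10 forms a complex at the inner face of the plasma membrane and a surface receptor for plasminogen and its activator, rose on d1. Its libraries read 29222, 30135 and 30651 normalized counts on d0 and 54804, 54461 and 53080 on d1. They stayed near this level on d4 (50966, 50391 and 49933), were lower on d7 (42986, 42007 and 47142) and stood at 56704, 56948 and 57008 on d10. At d15 they read 32675, 32317 and 31452, just above the untreated range, and on d20 they were back at 54370, 55577 and 56190. The libraries of d15 thus lay between the untreated ones and those of every other treated day. The log2 fold change against d0 was 0.85 on d1, 0.75 on d4, 0.55 on d7 (0.50 without library 3), 0.92 on d10 and 0.88 on d20, each with an SE of 0.04 and the largest limma adjusted p on d7, 1.07e-10. At d15 it was 0.10 with a limma adjusted p of 0.029, and this value became -0.06 after rescaling to the same total and -0.28 after quantile normalization. The d15 call was also lost without the low-value filter (limma adjusted p = 0.0582) and with edgeR (edgeR adjusted p = 0.0536). It was lost as well without library 1 or 2 of d0 or library 1 or 2 of d15 (limma adjusted p between 0.0527 and 0.111). Quantile normalization also lowered the d1 value to 0.43 and the d10 value to 0.50. The means on d10, d20 and d1 did not pass the threshold as neighbours in the order (limma adjusted p = 0.45 and 0.532).

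S100A10, the partner that annexin A2 protects from degradation, rose with TGFβ as well. Its libraries read 13902, 14723 and 14415 normalized counts on d0, and 23557, 23188 and 23617 on d1. Its mean was 21386 ± 186 (SD, n = 3) on d10, 16322 ± 421 on d15 and 20625 ± 579 on d20, so it too was low on d15. All treated libraries were above the untreated range, and the log2 fold change was 0.71 on d1 and 0.52 on d20 (limma adjusted p = 1.12e-12 and 1.47e-10). Within a library, the log2 ratio of ANXA2 to S100A10 relative to its d0 mean was 0.14 ± 0.03 (SD, n = 3) on d1, 0.07 ± 0.06 on d4 and -0.14 ± 0.14 on d7. It was 0.35 ± 0.02 on d10, -0.09 ± 0.02 on d15 and 0.36 ± 0.05 on d20. The proportion of the pair thus shifted most on d10 and d20, where every library lay above the untreated range of -0.03 to 0.02. The libraries of d1 and d4 also lay above that range and those of d15 below it. This ratio does not depend on the size factors.

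ANXA1, a secreted anti-inflammatory annexin that signals through formyl peptide receptors and restrains cytosolic phospholipase A2, moved up and down around its untreated level. Its libraries read 9969, 10246 and 10186 normalized counts on d0, 13352.5, 13456 and 13198 on d1, and 9640, 9676 and 9801 on d4. At d7 they read 8731, 9296 and 10275, the last from the library that stands apart, and on d10 12565, 12488 and 12376. At d15 they were at 7272, 7394 and 7443, below every untreated library, and on d20 at 11930, 12062 and 12084, above every one. Against d0 the log2 fold change was 0.40 on d1, 0.30 on d10 and 0.25 on d20, with limma adjusted p of 2.67e-08, 1.08e-06 and 1.66e-05. At d15 it was -0.46 (SE 0.04, limma adjusted p = 1.01e-09). It was -0.11 on d7 (limma adjusted p = 0.0242), with overlapping libraries, and became -0.17 without library 3 of d7 (limma adjusted p = 1.71e-06). That call was lost without any one of libraries 1 and 2 of d7 or 2 and 3 of d0, and the value was lowest in size, -0.05, without library 1 of d7 (limma adjusted p = 0.22). On d4 it was -0.06 (limma adjusted p = 0.17), which passed the threshold without library 3 of d7 (limma adjusted p = 0.0267), after rescaling to the same total (-0.26, limma adjusted p = 1.49e-05) and with quantile normalization (-0.20, limma adjusted p = 8.89e-05). After rescaling to the same total, the values on d10 and d20 were 0.07 and 0.05 and no longer passed the threshold (limma adjusted p = 0.136 and 0.34), and the d15 value was -0.62. The d1 value was 0.20 after either rescaling or quantile normalization, and the d20 value 0.05 with the latter (limma adjusted p = 0.283).

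S100A11, which binds the tail of annexin A1, rose more than its partner. It read 10465, 10763 and 10917 normalized counts on d0 and 22790, 22705 and 22806 on d1, a log2 fold change of 1.09 (limma adjusted p = 3.39e-16). At d15 its mean was 12819 ± 188 (SD, n = 3), above d0 by 0.26 (limma adjusted p = 2.15e-06), and on d20 it was 19525 ± 277. The within-library log2 ratio of ANXA1 to S100A11, set to 0 on d0, lay between -0.71 and -0.67 on d1, between -0.97 and -0.95 on d4, and between -0.64 and -0.60 on d20. Every treated library therefore had less ANXA1 for each S100A11 transcript than any untreated one. Of the 4 S100 partners considered, S100A10 and S100A11 were higher on all 6 days as deposited. On d15 their differences were 0.19 and 0.26. Rescaling to the same total put the median of all genes on d15 at -0.14, and the S100 values after rescaling are not given here. S100A4, a low transcript here, was lower on all 6 days, with a mean of 89.5 ± 18.5 on d0 and 42.6 ± 8.08 on d20. S100A6 was higher on d4 and d20 only, and on d20 its log2 fold change was 0.33 (limma adjusted p = 5.33e-06).

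The receptors and the enzyme on which annexin A1 acts were mostly low. FPR1 read 1.78, 5.94 and 1.98 normalized counts on d0 (2, 7 and 2 reads) and 24.4, 24.2 and 31.3 on d20, where its highest library held 32 reads. It passed the filter on low values only through treated days, so no test of it is given. FPR2 had at most 2 reads and FPR3 had 0 reads in every library. PLA2G4A, the cytosolic phospholipase A2, fell from 333, 361 and 348 normalized counts on d0 to 33.7, 37.99 and 34.2 on d15 and stood at 127, 125 and 104 on d20. Its log2 fold change was -3.27 on d15 and -1.55 on d20 (limma adjusted p = 4.15e-16 and 2.64e-10). At d15 ANXA1 and PLA2G4A were thus both at their lowest.

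ANXA5, which coats exposed phosphatidylserine in ordered arrays and is the protein used to stain dying cells, followed ANXA2 closely. Its libraries read 6808, 6994 and 7207 normalized counts on d0, 14686, 14536 and 14524 on d1, and 11535, 11137 and 11539 on d4. At d7 they read 8576, 9093 and 11805, on d10 14923, 14670.0 and 14497, on d15 7461, 7373 and 7221, and on d20 13945, 14165 and 14463. All libraries of d1, d10 and d20 lay between 13945 and 14923, and those of d15 lay just above the untreated ones. Relative to d0, ANXA5 had a log2 fold change of 1.06 on d1, 0.70 on d4, 1.07 on d10 and 1.02 on d20, each with an SE of 0.07 (the largest limma adjusted p, on d4, was 9.31e-09). At d7 it was 0.47 with library 3 and 0.34 without it (limma adjusted p = 3.75e-06 and 1.11e-12). At d15 it was 0.07, with a 95% interval of -0.07 to 0.21 (limma adjusted p = 0.361), and it turned to -0.09 after rescaling to the same total.

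Genes that move phosphatidylserine between the leaflets of the membrane, to which annexin A5 binds when it is exposed, did not share this course. Of the 6 scramblase and flippase genes tested, all were higher on d4, 3 on d1, 4 on d7, 3 on d10, 5 on d15 and 2 on d20, and 1 was lower on d7 and on d10. Over all genes tested, the share higher was between 31.3% and 39.2% on these days. Without library 3 of d7 the numbers higher were 4 on d1, 4 on d10 and 3 on d20, with the other days the same. ANO6, the calcium-activated scramblase, had its highest mean on d15, 6780 against 2717 normalized counts on d0, when ANXA5 was at its lowest treated level. Its log2 fold change was 1.32 on d15 and 0.73 on d20 (limma adjusted p = 3.59e-18 and 1.55e-13). TMEM30A, the flippase subunit, was higher by 0.21 on d20 (limma adjusted p = 0.000147).

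ANXA3, an annexin that inhibits phospholipase A2 in vitro and is linked to migration in tumour cells, had the widest range of timepoint means after ANXA6 and ANXA9, 3.21-fold. Its libraries read 1311, 1245 and 1268 normalized counts on d0, 3141, 3099 and 3077 on d1, and 1644, 1510.3 and 1529 on d4. At d7 they read 804, 919 and 1409, so that library 3 lay above the untreated range and the other two below it. At d10 they read 2448, 2546 and 2445, on d15 976, 980 and 943, and on d20 2056, 2154 and 2295. The log2 fold change was 1.28 on d1, 0.29 on d4, 0.96 on d10, -0.40 on d15 and 0.76 on d20, each with an SE of 0.11 (limma adjusted p between 3.79e-09 and 0.0283). At d7 it was -0.33 with all libraries and -0.57 without library 3 (limma adjusted p = 0.0153 and 1.18e-13). That call was lost without library 1 or 2 of d7, at -0.16 and -0.26 (limma adjusted p = 0.158 and 0.0759). It was also lost with only d0 and d7 in the fit (limma adjusted p = 0.16). The d4 value fell to 0.09 after rescaling to the same total (limma adjusted p = 0.479) and to 0.22 with quantile normalization (limma adjusted p = 0.0855). The d4 call was also lost without library 2 of d0, library 3 of d0 or library 1 of d4 (limma adjusted p = 0.0725, 0.0613 and 0.0937). In its order of means every neighbouring pair differed except d10 with d20 and d7 with d15 (limma adjusted p = 0.176 and 0.632), and these differed too when library 3 of d7 was left out (limma adjusted p = 0.000186 and 0.00268).

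ANXA7, also called synexin and known for fusing secretory vesicles, resembled ANXA1 in the direction and size of its changes. Its means were 3028 ± 75.1 (SD, n = 3) on d0, 3677 ± 14.04 on d1, 3734 ± 21.4 on d10, 2514 ± 24.8 on d15 and 3902 ± 85.9 on d20. Its log2 fold change was 0.28, 0.30, -0.27 and 0.37 on d1, d10, d15 and d20 (limma adjusted p = 0.000861, 0.000312, 0.000817 and 4.71e-05). After rescaling to the same total the d1 and d10 values were 0.09 and 0.08 and did not pass the threshold (limma adjusted p = 0.262 and 0.324). At d7 library 3 read 3367 and the others 2538 and 2580.4, and the difference from d0 was -0.11 with it (limma adjusted p = 0.138) and -0.24 without it (limma adjusted p = 1.75e-08). With library 3 kept, it passed the threshold after rescaling (-0.30, limma adjusted p = 0.000465) and with quantile normalization (-0.19, limma adjusted p = 0.00703). On d4 it was -0.05 and did not pass, but was -0.24 after rescaling and -0.14 with quantile normalization (limma adjusted p = 0.00277 and 0.0359). The annotation places 105 bases of an antisense gene over ANXA7 exons, and that gene is not a row of the table.

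ANXA4, an annexin of apical epithelial membranes, varied least, with timepoint means from 1331 on d4 to 1650 on d7, a 1.24-fold range. Its libraries read 1493, 1498 and 1537 on d0, 1301, 1355 and 1338 on d4, and 1358, 1343 and 1361 on d20. It was lower on d4 by 0.18 and on d20 by 0.16 on the log2 scale (limma adjusted p = 0.00877 and 0.0245). The d20 call was lost without library 3 of d0 or library 2 of d20 (limma adjusted p = 0.0715 and 0.0614). After d4 its direction was the opposite of that of most members in each interval. At d7 its libraries 1 and 2 read 1737 and 1791 and library 3 read 1421, which gave a difference from d0 of 0.12 with it and 0.22 without it (limma adjusted p = 0.0726 and 7.31e-06). At d15, with libraries of 1678, 1657 and 1590.1, the difference was 0.12 (limma adjusted p = 0.0652), and 0.00313 was the limma adjusted p without library 3 of d7. Both of these values changed sign after rescaling to the same total, to -0.07 and -0.04. Rescaling also gave differences past the threshold on d1 and d10, -0.22 and -0.29 (limma adjusted p = 0.00181 and 0.0001).

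ANXA11, which tethers RNA granules to lysosomes, declined over the course. Its means were 2553 ± 91.6 (SD, n = 3) on d0, 2527 ± 46.6 on d1, 2386 ± 70.7 on d4, 1923 ± 195 on d7, 2180 ± 81.6 on d10, 1788 ± 91.2 on d15 and 1847 ± 13.9 on d20. It was lower than in untreated cells on d7, d10, d15 and d20, by 0.41, 0.23, 0.51 and 0.47 on the log2 scale, and the largest limma adjusted p of these was 0.000803. Without library 3 the d7 difference was -0.50 (limma adjusted p = 8.47e-14). The differences on d1 and d4 were -0.01 and -0.10 (limma adjusted p = 0.835 and 0.11), and the second was called without library 3 of d7 (limma adjusted p = 0.0165). Both passed the threshold after rescaling to the same total, at -0.21 and -0.29 (limma adjusted p = 0.00224 and 5.63e-05), and with quantile normalization, at -0.16 and -0.21 (limma adjusted p = 0.00754 and 0.000519). The neighbours d7, d20 and d15 at the low end of its order did not pass the threshold in turn (limma adjusted p = 0.406 and 0.422).

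ANXA9, an atypical annexin whose calcium-binding sites are not conserved, was a low transcript that fell at once. Its libraries read 95.2, 91.6 and 88.1 normalized counts on d0, 38.7, 49.2 and 28.8 on d1, and 31.6, 25.3 and 36.2 on d4. They read 47.5, 43.8 and 29.8 on d7, 24.9, 8.75 and 22.5 on d10, 38.8, 34.4 and 30.0 on d15, and 27.6, 31.6 and 38.2 on d20. No treated library reached the untreated range. The log2 fold change was -1.25 on d1, -2.35 on d10 and -1.48 on d20 with an SE of 0.28, and the limma adjusted p was 0.000723, 2.39e-07 and 0.000111. On d7 the value was -1.19 with all libraries and -0.99 without library 3 (limma adjusted p = 0.000904 and 0.00141). Below d0, its order of means showed a difference only between d4 and d10 (limma adjusted p = 0.0144), and the low level on d10 rests partly on the library at 8.75. ANXA10, a gastric annexin, was close to absent at this depth. It summed to 19 reads over the 21 libraries, had 0 reads in 10 of them and at most 4 in any, and was not tested.

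The second question was how the members moved between one treated day and the next, which does not involve the untreated libraries. From d1 to d4 no member was higher (32.9% of all genes tested) and 6 of 9 were lower (32.0%), led by ANXA3 with a log2 change of -0.99 (limma adjusted p = 2.13e-07). The other members that passed fell by 0.46 (ANXA1), 0.35 (ANXA5), 0.33 (ANXA7), 0.15 (ANXA4) and 0.10 (ANXA2), and the ANXA2 value turned to 0.03 with quantile normalization. The ANXA2 call was lost without the low-value filter, or without library 1 or 2 of d1 or library 2 or 3 of d4 (limma adjusted p between 0.0647 and 0.0891). The ANXA4 call was lost without library 3 of d1 or library 1 of d4, and with quantile normalization (limma adjusted p = 0.0883, 0.0817 and 0.0562). From d4 to d7, 1 member was higher (25.5%) and 4 were lower (25.5%), and without library 3 of d7 these were 1 (29.2%) and 7 (30.1%). From d7 to d10, 7 were higher (36.2%) and 2 lower (35.2%), with the same counts without library 3 of d7 (38.4% and 36.8% of all genes).

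From d10 to d15 the direction of most members was the opposite, with 2 higher (39.3%) and 7 lower (40.5%). The members that fell were ANXA3 by 1.36, ANXA5 by 1.00, ANXA2 by 0.82, ANXA1 by 0.76, ANXA6 by 0.61, ANXA7 by 0.57 and ANXA11 by 0.29 on the log2 scale, and the median of the 9 was -0.61 against -0.01 for all genes. ANXA4 and ANXA9 rose by 0.19 and 0.96 (limma adjusted p = 0.00603 and 0.00403). The ANXA9 call was lost without library 2 of d10, the one at 8.75 normalized counts (0.51, limma adjusted p = 0.05), and with quantile normalization (0.52, limma adjusted p = 0.101). From d15 to d20, 6 were higher (37.7%) and 1 lower (36.3%). ANXA6 rose by 1.34, ANXA3 by 1.16, ANXA5 by 0.95, ANXA2 by 0.78, ANXA1 by 0.71 and ANXA7 by 0.63, each with a limma adjusted p of 1.69e-08 or less, and ANXA4 fell by 0.28 (limma adjusted p = 0.000222). The values on d15 thus stood apart for 6 members from those of the days on either side. Changes of at least 2-fold over one interval were shown by 0 members higher and 0 lower from d1 to d4 (4.19% and 1.98% of all genes), 0 and 0 from d4 to d7 (2.27% and 1.51%), and 1 and 1 from d7 to d10 (3.63% and 9.09%). From d10 to d15 they numbered 0 and 1 (12% and 10.2%), and from d15 to d20 they numbered 2 and 0 (7.55% and 7.43%). Each of the 3 libraries of d15 showed the low level. Epithelial markers moved over the same intervals, with CDH1, KRT5 and KRT14 higher from d10 to d15 by 0.77, 0.80 and 0.80 on the log2 scale (limma adjusted p = 9.18e-11, 4.6e-05 and 2.17e-06). From d15 to d20 these 3 fell by 1.14, 0.68 and 0.38 (limma adjusted p = 2.97e-13, 0.000282 and 0.00612). EPCAM was lower by 0.21 from d10 to d15 (limma adjusted p = 0.0257) and did not pass the threshold after it. Of the mesenchymal markers, VIM was higher by 0.24 from d10 to d15, and FN1, CDH2 and ZEB1 were higher by 0.28, 1.84 and 1.02 from d15 to d20 (limma adjusted p = 0.00693, 0.000275, 9.15e-10 and 5.59e-05). The part of these markers in the annexin values was not tested.

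**Figure D3:**
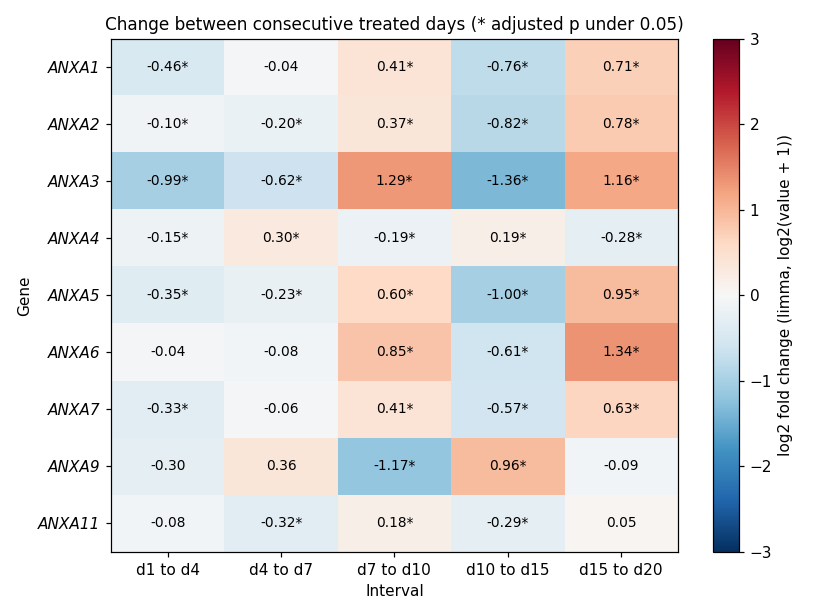
Log2 change (colour and printed value, limma on log2(value + 1)) of each tested annexin (y axis) over each interval between consecutive treated days (x axis), with an asterisk where the adjusted p is under 0.05. ANXA1, ANXA2, ANXA3, ANXA5, ANXA6 and ANXA7 were below 0 from d10 to d15 and above 0 from d15 to d20, while ANXA4 went the other way in both intervals.

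Ratios of members within a library are the same whatever size factor the library is given. They showed that the balance among ANXA1, ANXA2 and ANXA6 shifted. The log2 ratio of ANXA2 to ANXA1 relative to its d0 mean was 0.45 ± 0.01 (SD, n = 3) on d1, 0.81 ± 0.03 on d4, 0.66 ± 0.07 on d7, 0.62 ± 0.01 on d10, 0.56 ± 0.04 on d15 and 0.64 ± 0.01 on d20. At d15, when both transcripts were low, the ratio stayed at its treated level. That of ANXA6 to ANXA2 was 0.41 ± 0.03 on d1, 0.48 ± 0.05 on d4, 0.60 ± 0.14 on d7, 1.08 ± 0.04 on d10, 1.30 ± 0.05 on d15 and 1.86 ± 0.04 on d20. Its mean was larger at each later day, d15 included, and the libraries of d10, d15 and d20 did not overlap one another. These ratios are given as descriptions with their spread.

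**Figure D4:**
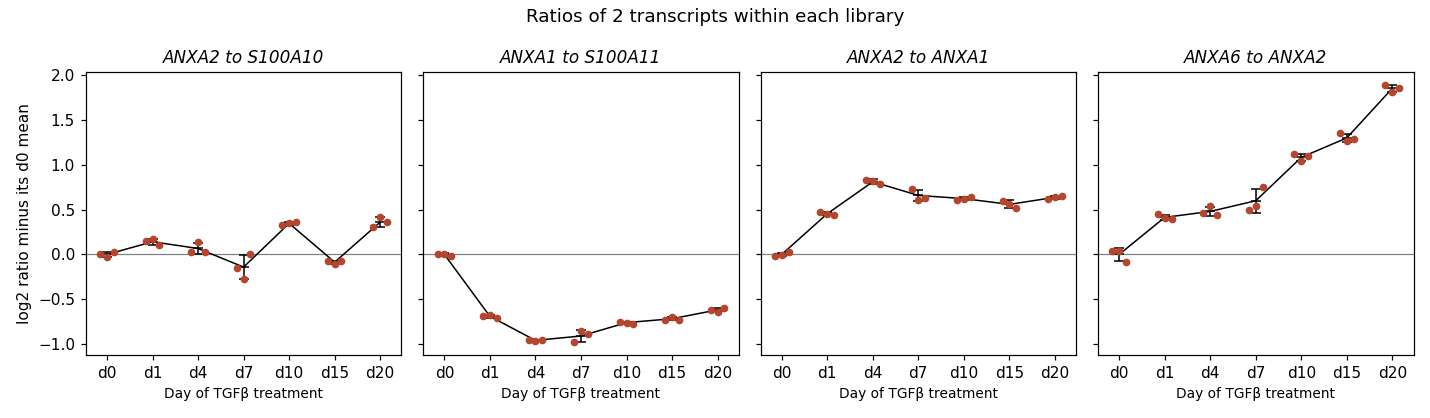
Log2 ratio of 2 transcripts within each library minus its d0 mean (y axis, shared) against the day of TGFβ (x axis), where points are libraries, lines join the means and whiskers are the SD. ANXA6 to ANXA2 climbed to 1.86 on d20, ANXA1 to S100A11 was lowest on d4 at -0.96, and ANXA2 to ANXA1 lay between 0.45 and 0.81 on the treated days.

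Annexins act in plasma membrane repair with dysferlin, calpains, caveolar proteins and the ESCRT machinery, and 15 of the 16 genes listed for that process were tested. Against d0, 12 of them were higher on d1, 9 on d4, 8 on d7, 12 on d10, 6 on d15 and 11 on d20, and the numbers lower were 0, 1, 0, 1, 4 and 2. Of all genes tested, 31.3%, 36.9%, 34.6%, 37.0%, 39.2% and 32.5% were higher on those days and 28.5%, 35.3%, 32.6%, 30.7%, 37.3% and 30.2% lower, so the 6 of 15 on d15 is close to the share over all genes. Without library 3 of d7 the numbers on d7 were 9 higher and 2 lower. TGM2, a transglutaminase that crosslinks proteins at membrane and matrix, read 247, 218 and 229 normalized counts on d0 and 24283, 23951 and 23772 on d1. It was still 11203 ± 393 (SD, n = 3) on d20, a log2 fold change of 5.59. EHD1, an endocytic recycling ATPase, was at 1064 ± 92.6 on d0, 3238 ± 94.1 on d10, 1090 ± 23.2 on d15 and 2745 ± 138 on d20. DYSF (dysferlin), the calcium sensor of muscle membrane repair, was low, at 152 ± 12.3 on d0, 88.7 ± 10.4 on d15 and 331 ± 25.1 on d20. The caveolar coat gene CAVIN1 (row PTRF) was at 6431 ± 159 on d0, 7846 ± 210 on d15 and 13702.5 ± 306 on d20. The d20 values of these 3 were 1.37, 1.12 and 1.09 on the log2 scale. They and TGM2 were named because their d20 changes were the largest of the list, so these values do not test the list. The 2 genes lower on d20 were CAPN1 and VPS4A, at -0.34 and -0.13. From d10 to d15, 10 of the 15 were lower and 3 higher (40.5% and 39.3% of all genes). TRIM72, the muscle repair protein, had at most 3 reads.

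To place each member among all genes, the 11482 genes with a mean of at least 50 were ranked by the root mean square difference of their log2 fold changes against d0 from those of the member over the 6 treated days. The profile of ANXA1 was nearest to CTTN, ATOX1 and GNAI3, at 0.04, 0.06 and 0.07, and 572 genes lay within 0.2 of it. That of ANXA2 was nearest to RALB, GALNT6 and FTSJ1, at 0.10 to 0.12, with 55 genes within 0.2. ANXA5 was nearest to MSN, ACOT9 and ARPC1B, also at 0.10 to 0.12, with 33 genes within 0.2. ANXA6, ANXA3 and ANXA9 had fewer genes within this fixed distance. The median distance over all genes was 1.76 for ANXA6 and 1.61 for ANXA9. It was 0.86 for ANXA3, 0.82 for ANXA2, 0.90 for ANXA5 and 0.48 for ANXA1. The fold changes had an SE of 0.28 for ANXA9 and 0.11 for ANXA3. The numbers within 0.2 thus depend on the size and precision of the changes and do not measure how rare a profile is. ANXA6 had 1 gene within 0.2, LIMD2 at 0.19, followed by SYDE1 at 0.21 and ROR1 at 0.28, and ANXA3 had none, the nearest being C16orf74 at 0.22, LRRC59 at 0.23 and SDF2L1 at 0.23. ANXA9 also had none, with ACCN2, SAMD12 and ALDH5A1 at 0.24 to 0.27. ANXA7 was nearest to PSMB7, PITRM1 and ATG7, ANXA4 to RPLP1, RPL8 and BRF1, and ANXA11 to GTF2A1, KCNK1 and PTBP2, at 0.04 to 0.09. These distances share the same libraries and the same d0 means and are given as a description.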

How the data were processed

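The 21 RNA-seq libraries of HMLE cells covered 7 timepoints. In the deposited table, made by the authors, each of 23201 symbols has a normalized signal in every library, and these values proved to be whole reads over a size factor, rounded to 2 decimals. The factors matched a median-of-ratios calculation (ratios 0.99966 to 1.00027), and whole reads were recovered for 100% of values in every library, within 0.1 of a read. Submitters' processing notes name STAR 2.7, Salmon 1.4 and hg19 with no role or order, and the test the authors used for these libraries is not given in the sources used here. Total depth was 18847917 to 22667754 reads, and a gene at 3 reads or fewer was treated as at the floor, which covers counting error only. Columns name the timepoint and not the replicate, so libraries are numbered in file order within a timepoint.

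Genes with a mean of at least 10 (13343) were fitted by limma 3.58.1 (R 4.3.3) to log2(value + 1), with a pseudocount of 1 (one mean per timepoint, eBayes with trend, 14 residual degrees of freedom). Adjustment of p-values followed Benjamini-Hochberg over all genes within each contrast, with a threshold of 0.05. The paper calls the libraries biological triplicates and the labels do not name separate cultures, so p-values measure the spread between these libraries. Library pairs outside d7 differed by 1.37 to 2.84 times the sampling variance of their reads, so none was counted as a duplicate. The rule that takes the members by symbol uses no measured value. The choice of this family and of all gene lists was nevertheless made with earlier results of these data known. The genes named are the 10 members, S100A10 and S100A11, up to 4 genes per partner list with the largest d20 change past the threshold, and the 3 genes nearest to each member in profile. Other list genes were named to complete a count. The alternatives were a pseudocount of 10, no low-value filter, rescaling to the same total, quantile normalization, a fit of only the 2 timepoints compared, edgeR 4.0.16 and DESeq2 1.42.0 on the recovered reads, a required 2-fold change, and leaving out each library. The fits were tested on simulated data. Exon lengths came from the GENCODE basic annotation and promoters from RefSeq. Protein sequences were not used here. Plots used matplotlib 3.10.9 and Python 3.11.15.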

Additional observations from a re-analysis of the deposited data

How the results depend on the processing

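No paired analysis was possible because columns name the timepoint and not which replicate a library is. Of the counts of members called, 142 stayed within 1.5 times their main value under the alternatives other than a left-out library and 34 moved. When a 2-fold change (an absolute log2 value of 1) was also required, the members higher than d0 numbered 3 on d1, 1 on d4, 1 on d7, 2 on d10, 1 on d15 and 2 on d20, and 1 was lower at each of d4, d7, d10, d15 and d20. Between consecutive days that minimum left 0 lower from d1 to d4, 0 higher and 0 lower from d4 to d7, 1 higher and 1 lower from d7 to d10, 0 higher and 1 lower from d10 to d15, and 2 higher and 0 lower from d15 to d20. Rescaling to the same total gave 3 lower on d1, 5 lower on d4 and 1 higher on d15. Of the 13352 genes then tested, 6696, 6608 and 4044 were called in the same way. Quantile normalization gave 2, 5 and 1, against 4607, 5420 and 4942 of 13344 genes, and it gave 1 higher from d10 to d15. With edgeR 4 were lower on d4 and 1 higher on d15, against 5091 and 5097 of 13343 genes. Without the low-value filter 1 was higher on d15, against 5771 of 19546 genes. With only the timepoints compared in the fit, 2 were lower on d7 and 4 higher on d15, against 3473 of 13388 and 5516 of 13446 genes. That fit gave 2 lower from d4 to d7 and 1 lower from d7 to d10. Counts over all genes are not given here for intervals under these alternatives. The cause of these moves was not tested, apart from the stricter minimum, which by construction calls fewer.

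Leaving out one library at a time gave ranges of 3 to 4 higher and 2 to 4 lower on d4, 3 to 4 higher and 2 to 5 lower on d7, 1 to 4 higher on d15, and 2 to 3 lower on d20. It gave 5 to 7 lower from d1 to d4, 3 to 7 lower from d4 to d7, 1 to 2 lower from d7 to d10 and 1 to 2 higher from d10 to d15. The 4 lower on d4, the 4 higher on d15 and the 7 lower from d4 to d7 were obtained without library 3 of d7. For single members, the log2 fold change changed sign after rescaling to the same total for ANXA2 on d15 (-0.060), ANXA5 on d15 (-0.089) and ANXA4 on d7 (-0.070) and d15 (-0.038). With quantile normalization it did so for ANXA2 on d15 (-0.28) and from d1 to d4 (0.030), and from d15 to d20 for ANXA9 (0.094) and ANXA11 (-0.040). Over the libraries left out one at a time, the change from d4 to d7 ranged from -0.11 to 0.010 for ANXA1 and from -0.20 to 0.0087 for ANXA7, above 0 without d7 library 1. That from d15 to d20 ranged from -0.21 to 0.021 for ANXA9 (0.0010 without d15 library 1 and 0.021 without d20 library 1), and that on d1 from -0.037 to 0.014 for ANXA11, above 0 without d0 library 3. Depth limited the statements on ANXA10, FPR2, FPR3 and TRIM72, and made those on ANXA9 and FPR1 less precise.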
